A study of Mus musculus with 6 samples.

Results

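Mitochondrial ribosomal proteins were followed in RNA sequencing of mouse inguinal lymph nodes, in 3 libraries labelled Naringin and 3 labelled Control. The members were all genes whose symbols begin with Mrpl or Mrps and a number, other than pseudogene symbols, with a mean over the 6 libraries of at least 1 CPM (reads per 1000000 reads of the library). All 78 matching symbols passed, of 50559 genes in the deposited table and 14873 that passed the same threshold. Naringin is a flavonoid glycoside of grapefruit. The Naringin mice received 200 mg/kg of it per day in their food, and the Control libraries carry no dose. The labels do not say which strain, genotype, sex or age the mice had, how long they were fed or what the Control mice ate. Nor do they state that the libraries of a group came from separate animals, so the p-values measure the spread between these libraries, which may be technical.

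The mitochondrial ribosome translates the small set of mRNAs encoded in mitochondrial DNA, all of which specify membrane subunits of the respiratory chain and ATP synthase. Its rRNAs come from mitochondrial DNA, but every one of its proteins is encoded in the nucleus, made on cytosolic ribosomes and imported. Some of these proteins descend from bacterial ribosomal proteins and others were gained in the mitochondrial lineage. In lymphocytes, activation and division are accompanied by mitochondrial growth, for which this ribosome is required. Of the 78 genes, 51 encode large subunit proteins, 30 with a bacterial counterpart and 21 specific to mitochondria. The small subunit accounts for 26, of which 16 have a bacterial counterpart and 10 do not. The symbols do not always follow the structure. Mrps30 and Mrps18a belong to the large subunit, and Mrps36 is a component of the 2-oxoglutarate dehydrogenase complex of the citric acid cycle and no part of the ribosome.

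Between 13074180 and 14976422 reads per library were assigned to genes. Each member was backed by at least 122 reads in every library and by at most 1388. No member lay near the threshold. The member with the lowest mean, Mrpl47, had 11.6 CPM, while the highest of the 6 pseudogene symbols left out, Mrpl23-ps1, averaged 0.488 CPM. Markers of the tissue were present: the T cell gene Cd3e ran from 156 to 248 CPM in Naringin and from 207 to 231 CPM in Control libraries. The muscle gene Myh4 had 0 reads in all 6 libraries, while the muscle gene Acta1 had 1 to 6 and the skin gene Krt10 had 40 to 60. The other skin genes on the list, Krt14 and Krt5, had 0 to 4 and 0 to 1 reads. In whole tissue, fewer cells of a type and less RNA per cell cannot be told apart. Control 3 stood apart from the other 5 libraries in these genes, and results that rest on it are given with and without it.

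No mitochondrial ribosomal protein gene passed the test between Naringin and Control. Together the 78 genes took 2554, 2690 and 2726 CPM in Naringin 1, 2 and 3, against 2457, 2457 and 3223 CPM in Control 1, 2 and 3. The sums were 2657 ± 90.9 CPM in Naringin and 2712 ± 443 CPM in Control (SD, n = 3 each), a ratio of 0.979, and the range of Control enclosed that of Naringin. In limma's test on log2(CPM + 1), with Benjamini-Hochberg adjustment over all 14873 genes, 0 of 78 members passed an adjusted p of 0.05. Of all 14873 genes 0% passed, while 213 genes and 0 members had an unadjusted p under 0.05. On the recovered reads, edgeR's quasi-likelihood test also called 0 genes (233 with an unadjusted p below that value), and the members called by DESeq2 were 0. The fitted difference, Naringin minus Control, was above 0 in 32 members and below 0 in 46, with a median of -0.02 on the log2 scale. Over all tested genes the median was 0.02, and 56.7% were above 0, against 41.0% of the members.

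The absence of calls came with intervals of moderate width. The 95% intervals had a median half-width of 0.36 (log2), and 75 of the 78 lay inside a 1.5-fold difference in either direction. All 78 lay inside 2-fold, with outermost bounds of -0.61 for Mrps21 and 0.66 for Mrps22. In 2 members every Naringin value lay above every Control value, and in 0 every Naringin value lay below. Over all tested genes 3.36% were separated upward and 2.29% downward. A gene highest in Control 3 cannot be separated upward, and 62 of the 78 members were highest there, against 24.0% of all tested genes. Likewise, the 59 members lowest in Control 1 or 2 could not be separated downward. The members' 2 of 78 and these shares are therefore not a like comparison.

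**Figure D1:**
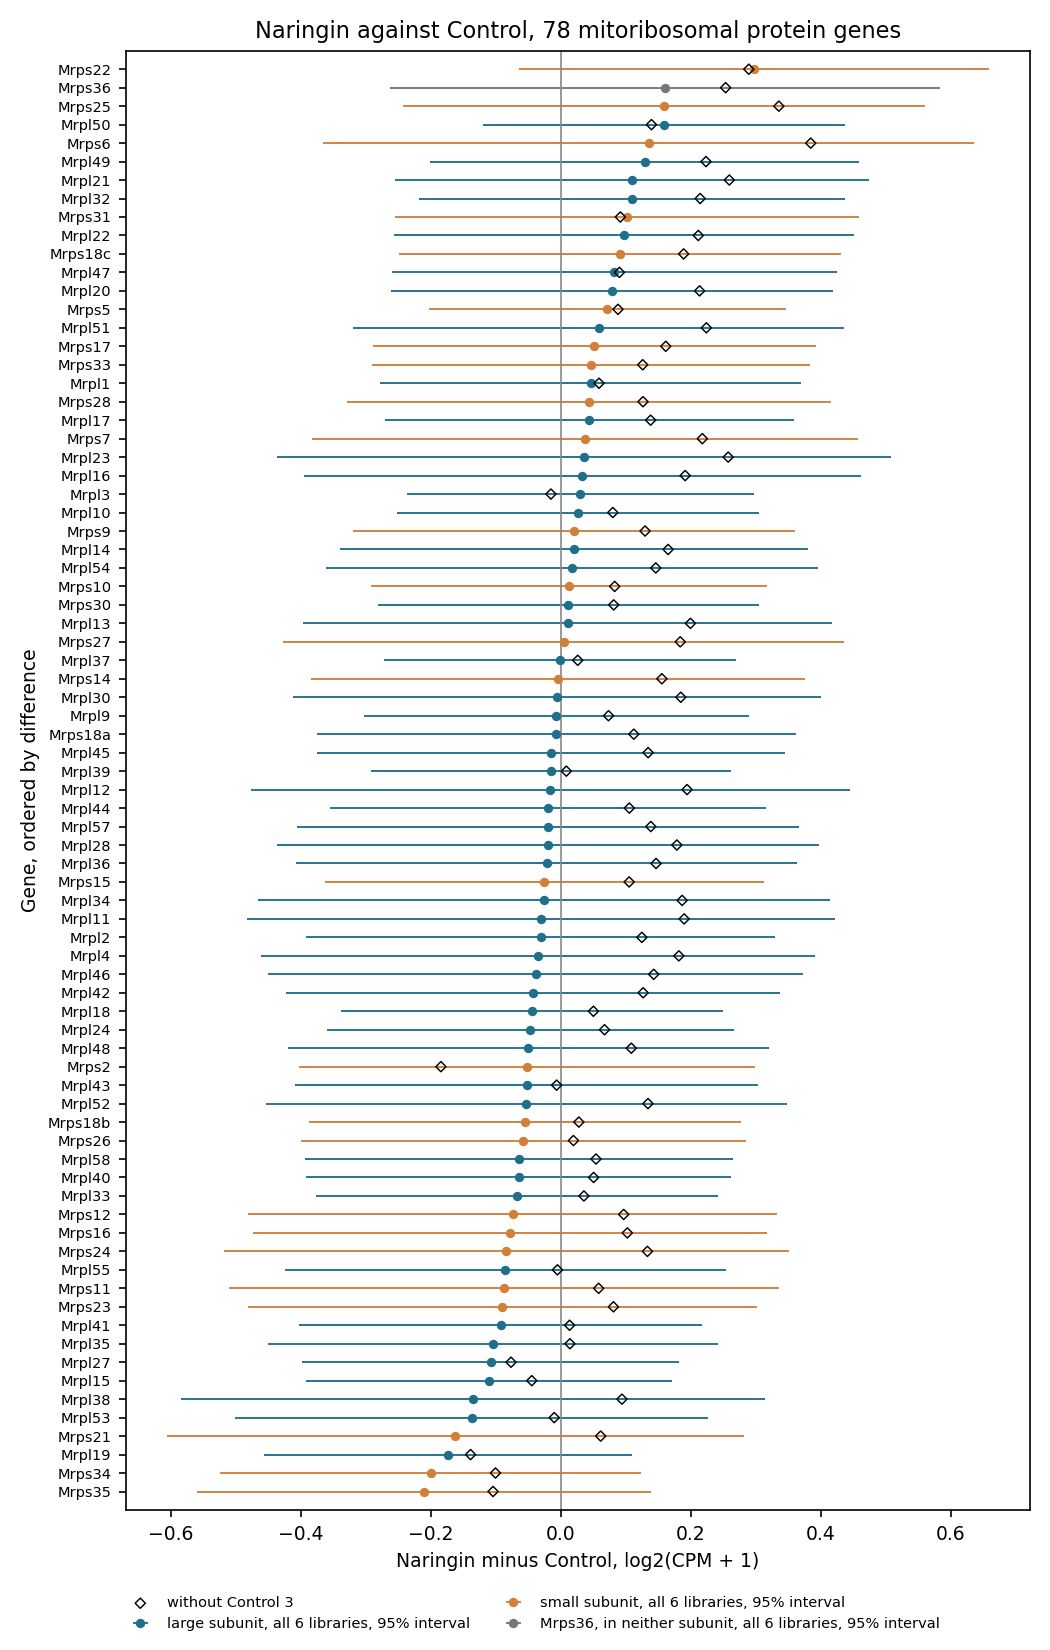
Fitted difference, Naringin minus Control, in log2(CPM + 1) for each of the 78 genes, ordered by size, with 95% intervals from limma over all 6 libraries (filled points) and the difference without Control 3 (open diamonds). All 78 intervals include 0, and most diamonds sit to the right of their filled points.

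The 2 separated members were Mrps22 and Mrpl50, both of which lack a bacterial counterpart. Mrps22 is a small subunit protein whose human counterpart is mutated in an inherited disorder of mitochondrial translation. It had 16.6, 15.8 and 12.7 CPM in Naringin 1, 2 and 3, and 11.8, 12.3 and 11.8 CPM in Control 1, 2 and 3. The Naringin values were spread more widely than the Control ones, and Naringin 3 lay only just above Control 2. Its difference of 0.30 ± 0.16 (log2, SE) was the widest of the 78 and had the smallest unadjusted p, 0.0954, with an adjusted p of 1.00 by limma. Mrpl50, of the large subunit, had 29.0, 27.8 and 26.7 CPM in Naringin, against 24.2, 26.1 and 24.1 CPM in Control, a difference of 0.16 ± 0.12. These 2 genes were also among the few that were not higher in Control 3 than in Control 1 and 2. Their differences without that library were 0.29 and 0.14.

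The small subunit as a whole was evenly divided, with 13 members above 0 and 13 below. Its lowest members were 2 proteins without bacterial counterparts. Mrps35 had 18.0, 20.6 and 20.2 CPM in Naringin, against 20.0, 22.3 and 26.6 CPM in Control, a difference of -0.21 ± 0.15. Mrps34, which in mice is needed for a stable small subunit, had 28.3, 28.1 and 30.4 CPM in Naringin, against 28.8, 33.5 and 38.4 CPM in Control, with -0.20 ± 0.14. In both genes the groups overlapped, and Control 3 was the highest library. Mrps21, which corresponds to bacterial S21, showed how far a single library set the sign. It had 48.3, 42.9 and 48.0 CPM in Naringin, against 44.9, 43.8 and 71.2 CPM in Control, which gave -0.16 with Control 3 and 0.06 without. Mrps25 had 22.2, 22.9 and 23.3 CPM in Naringin, against 17.1, 18.6 and 26.2 CPM in Control, and Mrps31 had 19.4, 17.9 and 14.4 CPM in Naringin, against 15.5, 16.6 and 15.6 CPM in Control, with differences of 0.16 and 0.10.

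In the large subunit 18 members lay above 0 and 33 below, with a median of -0.02 (log2). By class, 13 of the 30 proteins with a bacterial counterpart and 5 of the 21 specific to mitochondria were above 0, with medians of -0.01 and -0.02. Mrpl19, the counterpart of bacterial L19, had 28.3, 29.7 and 28.4 CPM in Naringin, against 34.1, 29.7 and 34.3 CPM in Control, and its difference of -0.17 ± 0.12 was the lowest of the subunit. Here Control 1 was as high as Control 3, so the value without Control 3 was still -0.14. Mrpl15, Mrpl53, Mrpl27 and Mrpl38 followed with -0.11, -0.14, -0.11 and -0.14. Mrpl27 is the counterpart of bacterial L27, which reaches toward the peptidyl transferase centre, and Mrpl38 is part of the central protuberance. On the other side, Mrpl49 had a difference of 0.13, Mrpl21 0.11 and Mrpl32 0.11. Mrpl32, which is matured by the m-AAA protease of the inner membrane before it joins the ribosome, had 25.7, 23.8 and 23.4 CPM in Naringin, against 20.7, 21.0 and 26.1 CPM in Control. In each of the genes named in this subunit other than Mrpl50 the groups overlapped or shared a value.

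Members with roles of their own were not called either. Mrps12, the counterpart of the bacterial decoding protein in which streptomycin resistance arises, had 20.8, 23.8 and 25.3 CPM in Naringin, against 22.3, 21.1 and 31.3 CPM in Control (-0.07, log2). Mrpl12, the stalk protein that also binds mitochondrial RNA polymerase, had 50.5, 56.6 and 66.2 CPM in Naringin, against 53.4, 46.9 and 78.1 CPM in Control (-0.02). Mrpl58, which is built into the large subunit and as a free protein releases stalled ribosomes, had 39.2, 38.6 and 44.3 CPM in Naringin, against 38.5, 39.6 and 50.3 CPM in Control (-0.06). In all 3 genes the groups overlapped and Control 3 was the highest library. The S18 family has 3 copies in mammals, at different places in the ribosome. Mrps18a, in the large subunit, differed by -0.01, and Mrps18b and Mrps18c, in the small, by -0.05 and 0.09. Mrps30, another large subunit protein with a small subunit name, differed by 0.01, Mrpl41 by -0.09 and Mrpl55 by -0.09. Mrps36, outside the ribosome, had 12.7, 14.4 and 13.7 CPM in Naringin, against 9.33, 13.4 and 13.8 CPM in Control, and its difference of 0.16 ± 0.18 rested on Control 1 (-0.0074 without that library). Mrps36 has 3 pseudogene symbols in the table, and reads of near-identical copies may be divided between them.

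A contrast wider than that between the groups lay within the Control group. Control 3 was the highest of the 6 libraries in 62 of the 78 members (79.5%), against 24.0% of all tested genes. Relative to the mean of Control 1 and 2, Control 3 was higher by a median of 0.35 (log2) over the members, and its summed level was 1.31 times theirs. Over all tested genes the same median was -0.04. The median was 0.36 in the large subunit and 0.33 in the small, and the ratio of summed large to small subunit levels stayed between 2.24 and 2.33 in Naringin and between 2.22 and 2.32 in Control libraries. Mrps6, the counterpart of bacterial S6, was furthest above them, with 24.5 CPM in Control 3, against 15.1 and 13.3 CPM in Control 1 and 2. Mrpl38 had 75.3 CPM in Control 3, against 44.4 and 48.5 CPM, and Mrpl23 had 51.3 CPM, against 31.2 and 32.7 CPM. No test applies to a single library, and the labels give no reason for its difference.

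**Figure D2:**
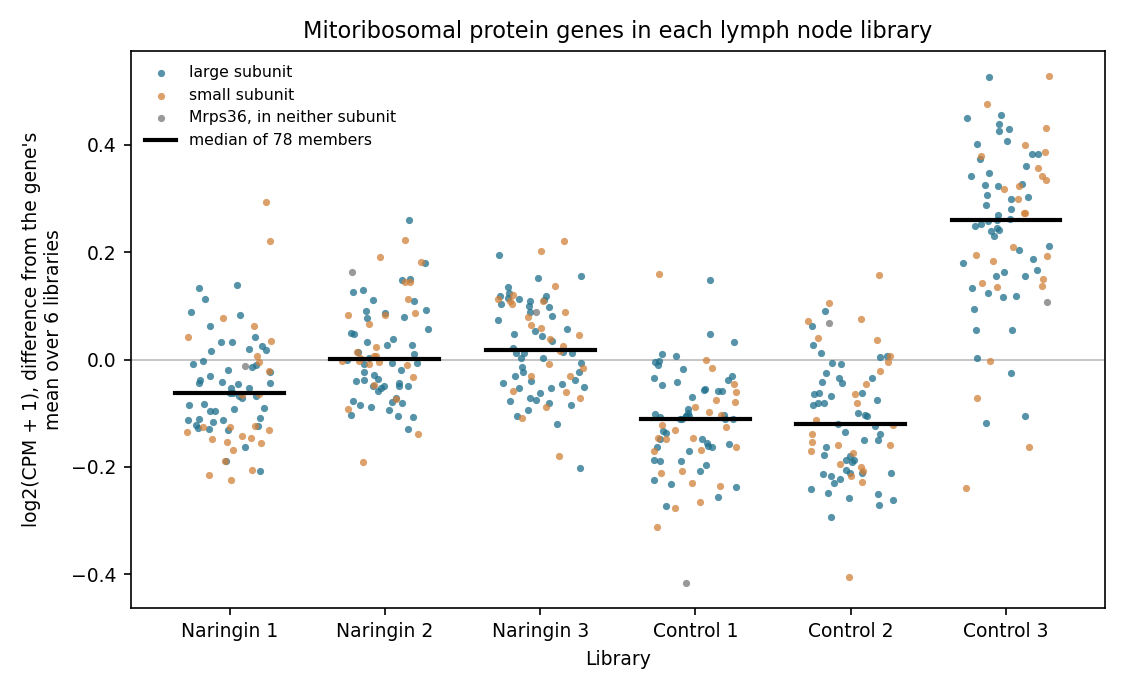
Difference of each gene's log2(CPM + 1) from its own mean over the 6 libraries, for the 78 genes (points, by subunit) in the 3 Naringin and 3 Control libraries, with the median of the members as a bar. The medians lay at -0.06, 0.00 and 0.02 in Naringin 1, 2 and 3, and at -0.11, -0.12 and 0.26 in Control 1, 2 and 3.

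A few members were not high in Control 3. Mrps2, the counterpart of bacterial S2, was lower there, with 20.8 CPM in Control 3, against 27.7 and 27.7 CPM in Control 1 and 2. Mrpl3 had 49.0 CPM in Control 3, against 54.6 and 53.3 CPM, and Mrpl50 had 24.1 CPM, against 24.2 and 26.1 CPM. These were the 3 members below both other Control libraries, while 70 were above both. Mrps22, Mrps31, Mrpl47, Mrpl1 and Mrps5 were within 0.05 (log2) of the mean of Control 1 and 2. This set was named after its values were seen.

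Control 3 differed from the other Control libraries along transcript length. Over the 14145 tested genes with a known exon length, Spearman's rho between the summed exon length and the difference of Control 3 from Control 1 and 2 was -0.46, a correlation across genes within the same libraries. In 5 bins of exon length holding equal numbers of genes, the median difference of all tested genes was 0.26 in the shortest bin, up to 2216 bases, and then 0.14, -0.01, -0.19 and -0.42 toward the longest. Mitochondrial ribosomal protein transcripts were short, with a median summed exon length of 2394 bases against 4238 bases for all tested genes. The medians of the members in the same bins were 0.39, 0.47, 0.32, 0.26 and 0.30, over 38, 15, 11, 8 and 6 members, each above the median of all tested genes in its bin. Their own rho with length was -0.25 over 78 genes. The part of RNA quality, library preparation and transcript length in the level of Control 3 was not tested.

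**Figure D3:**
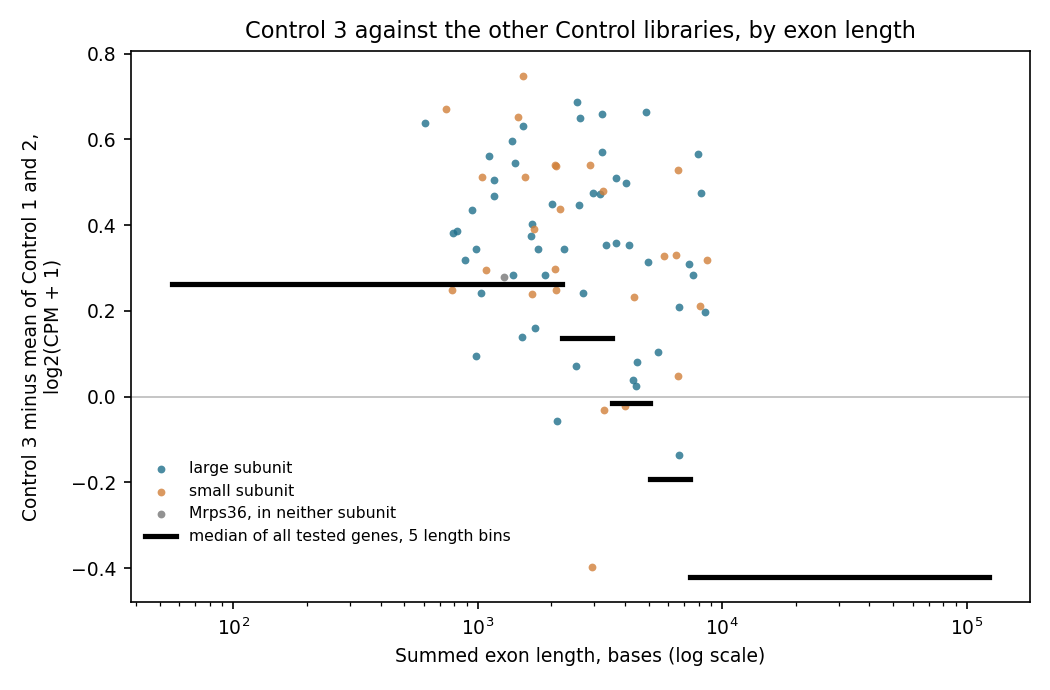
Control 3 minus the mean of Control 1 and 2, in log2(CPM + 1), against the summed exon length in bases on a log axis, for the 78 members (points, by subunit) and as medians of all tested genes in 5 bins of length (bars spanning each bin). The bars step down with length, with 0.26 in the shortest bin and -0.42 in the longest, and most members lie above the bar at their length.

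The spread within groups was narrower in Naringin than in Control. The SD among the 3 Naringin libraries had a median of 0.086 (log2) over the members, close to the 0.065 that counting error alone would give at these depths. Among the 3 Control libraries it was 0.226, against 0.068 from counting. The Naringin SD was the smaller one in 70 of 78 members, and in 66.1% of all tested genes. The pooled residual SD of the members was 0.175 with all libraries and 0.087 without Control 3. The members with the largest residual SD were Mrps6, Mrpl23, Mrpl12, Mrpl11 and Mrpl38, in each of which Control 3 was the highest library.

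Without Control 3 the balance of the members turned upward. Summed over the 78 genes, Naringin was then 1.08 times the mean of Control 1 and 2. The difference was above 0 in 68 members and below 0 in 10, with a median of 0.12 (log2), while the median of all tested genes was 0.00 and 50.3% of them were above 0. In the 5 bins of exon length, all tested genes had medians of 0.06, 0.06, 0.02, -0.03 and -0.09 from shortest to longest. The members had 0.13, 0.10, 0.11, 0.08 and 0.10 in the same bins. Also above 0 were 65 of 77 cytosolic ribosomal proteins and 72 of 80 nuclear respiratory subunits. The part of transcript length in this turn was not tested. In 30 members all Naringin values lay above both Control values and in 1, Mrps2, all lay below, against 11.2% and 16.6% of all tested genes. Still 0 of 78 members passed limma's adjusted p of 0.05, as 1 of all tested genes did (0.00672%), the chemokine receptor gene Cxcr4. The smallest adjusted p of a member was 0.450. That was Mrps6, with a difference of 0.38, followed by Mrps25 with 0.34 and Mrpl21 with 0.26. These were the 3 of 78 members whose unadjusted p by limma was under 0.05 in this fit, as was that of 1391 of all 14873 tested genes. The direction of the members as a group thus depended on whether Control 3 was counted, and in neither case was any member called.

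In 28 of the 78 members all Naringin values lay above Control 1 and 2 and below Control 3, as in 5.24% of all tested genes, a pattern counted after the values were seen. Mrps6 had 19.0, 18.2 and 19.3 CPM in Naringin, above the 15.1 and 13.3 CPM of Control 1 and 2 and below the 24.5 CPM of Control 3. Mrpl4, the counterpart of bacterial L4, had 57.2, 59.6 and 58.0 CPM in Naringin, against 51.6, 50.8 and 80.9 CPM in Control. Mrps24 had 38.9, 42.9 and 42.0 CPM in Naringin, against 36.6, 38.5 and 59.5 CPM in Control. Mrpl4 and Mrps24 were picked after their values were seen, as examples of this order.

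Scaling each library to the same summed level of the 78 genes showed how the members stood to each other. On this scale, which was added after the data were seen, 4 members had all Naringin values above all Control values and 4 had all below. The shares of all tested genes were 2.07% and 1.72% on the same scale, and 3.36% and 2.29% before the scaling. By construction the scaling takes the shared level of the members out, including that in Control 3, and shifts every other gene. The members' counts and these shares are therefore not a like comparison. The higher ones were Mrpl22, Mrpl32, Mrpl21 and Mrps25, and the lower ones Mrps35, Mrps34, Mrpl53 and Mrpl41. Again 0 members passed the adjusted p. Mrpl22, the counterpart of the L22 protein that lines the exit tunnel in bacteria, had 17.2, 17.7 and 18.9 CPM in Naringin, against 14.8, 15.8 and 19.7 CPM in Control before the scaling.

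Although the subunits assemble in fixed proportions, the levels of their mRNAs differed widely. Per kilobase of summed exon length, the mean over the 6 libraries ran from 2.47 CPM per kb for Mrps35 to 67.4 CPM per kb for Mrps21, a ratio of 27.3. After Mrps21 came 4 large subunit genes with short transcripts, Mrpl52 (55.1 CPM per kb), Mrpl41 (43.3), Mrpl34 (42.8) and Mrpl54 (39.3). The lowest after Mrps35 were Mrpl47 (2.62), Mrps10 (2.90), Mrps25 (3.30) and Mrps22 (3.38). The medians were 15.0 CPM per kb for the large subunit and 11.7 for the small. These levels rest on the summed exons of all annotated isoforms, so a gene with long alternative ends, as Mrps35 with 8631 bases, comes out lower than its main transcript would. Within a gene the 6 libraries lay close together compared with the range across genes.

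**Figure D4:**
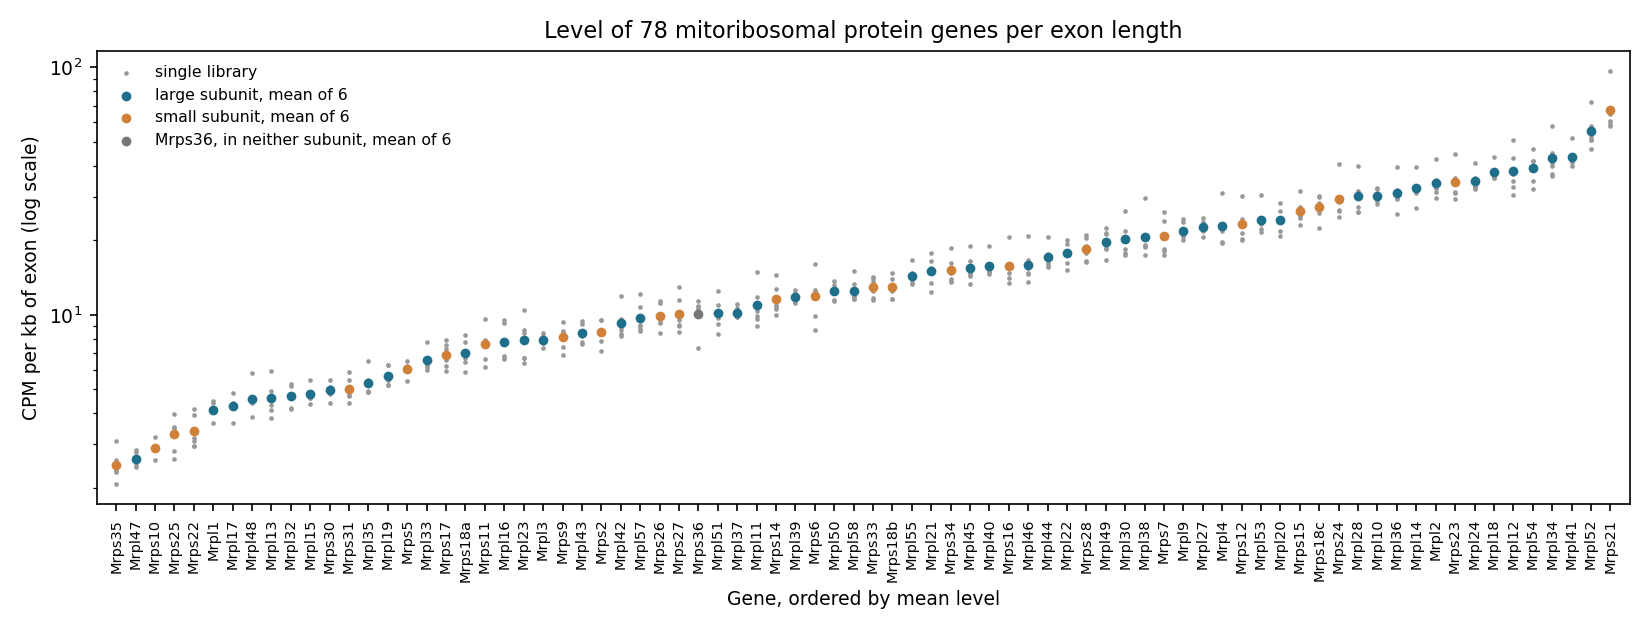
Level of the 78 genes in CPM per kb of summed exon length on a log axis, ordered by the mean of the 6 libraries (large points, by subunit), with each library as a small grey point. The means run from 2.47 for Mrps35 to 67.4 for Mrps21.

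Among genes that work with the mitochondrial ribosome, 0 were called in any list, as over the whole set of tested genes. Of the 5 ribosomal proteins with other symbols, 4 were above 0 and 1 below, with a median of 0.02. They are Dap3, a GTP-binding protein of the small subunit, Ptcd3, Aurkaip1 and Chchd1, also of the small subunit, and Gadd45gip1 of the large. Of these, Ptcd3 alone was low in Control 3, with 43.9, 49.0 and 46.9 CPM in Naringin, against 48.5, 48.4 and 33.4 CPM in Control. Among 30 genes of ribosome assembly and rRNA modification, 12 were above 0 and 18 below, with a median of -0.02. Tfb1m, which methylates the small subunit rRNA, had 8.58, 8.41 and 11.2 CPM in Naringin, against 6.50, 7.66 and 6.95 CPM in Control, a difference of 0.36 ± 0.18. Mrm3, which methylates the large subunit rRNA, had 8.44, 7.88 and 9.18 CPM in Naringin, against 9.25, 10.2 and 10.6 CPM in Control, a difference of -0.22 ± 0.16. In neither gene did the groups overlap, Tfb1m being higher in Naringin and Mrm3 lower, and neither was called. Such separation was seen upward in 3.36% and downward in 2.29% of all tested genes, and was not counted over the lists. Both genes, like Taco1 and Tfam below, were named for the smallest p of their list, which favours separated genes. Of 16 translation factors tested, 10 were above 0 and 6 below. Taco1, an activator of the translation of cytochrome c oxidase subunit I, had 23.0, 24.8 and 24.3 CPM in Naringin, against 20.3, 17.7 and 17.8 CPM in Control. Its groups did not overlap, and its difference of 0.36 ± 0.13 had an unadjusted p of 0.0257 and an adjusted p of 1.00 by limma. Mss51 of the same list differed by -0.19.

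Of 22 genes for mitochondrial aminoacyl-tRNA synthetases and the glutamine amidotransferase, 8 were above 0 and 14 below. The smallest p-values were those of Gatc and Rars2, with differences of -0.16 and 0.15. Lars2, the leucyl-tRNA synthetase, had 916 CPM in Control 1 and 275 to 439 CPM in the other 5 libraries, with a difference of -0.29 ± 0.44. It is named here after its values were seen. Of 13 genes of mitochondrial DNA maintenance and transcription, 8 were above 0 and 5 below. Tfam, which packages mitochondrial DNA and starts its transcription, had 72.3, 77.3 and 77.0 CPM in Naringin, against 67.4, 69.9 and 68.7 CPM in Control, groups that did not overlap, with a difference of 0.14 ± 0.11 and an adjusted p of 1.00 by limma. Polg2, the accessory subunit of the mitochondrial DNA polymerase, differed by -0.24. The 2 mitochondrial rRNAs differed by 0.04 (mt-Rnr1) and 0.03 (mt-Rnr2).

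The messages that the ribosome translates went the other way in Control 3. The 13 mitochondrially encoded mRNAs summed to 18565, 18156 and 18516 CPM in Naringin, against 19362, 19302 and 13488 CPM in Control. All 10 of them that passed the threshold were above 0, with a median of 0.12, and without Control 3 only 2 were, with a median of -0.03. ND6 and ND4, subunits of complex I, had the smallest p-values, with differences of 0.13 and 0.11. Control 3 minus the mean of Control 1 and 2 had a median of -0.42 (log2) over these 10, 0.45 over the nuclear subunits of the respiratory chain and 0.51 over the cytosolic ribosomal proteins. Control 3 was the highest library in 75 of 80 nuclear respiratory subunits and 76 of 77 cytosolic ribosomal proteins. These 2 lists had median summed exon lengths of 1578 and 1739 bases, against 4238 bases for all tested genes. Naringin against Control, 22 of the 80 and 2 of the 77 were above 0, with medians of -0.05 and -0.09. Without Control 3 these medians were 0.11 and 0.08. Sdhd and Ndufa5 had the smallest p-values of the first list, with 0.20 and -0.21, and Rps27 of the second differed by -0.29.

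**Figure D5:**
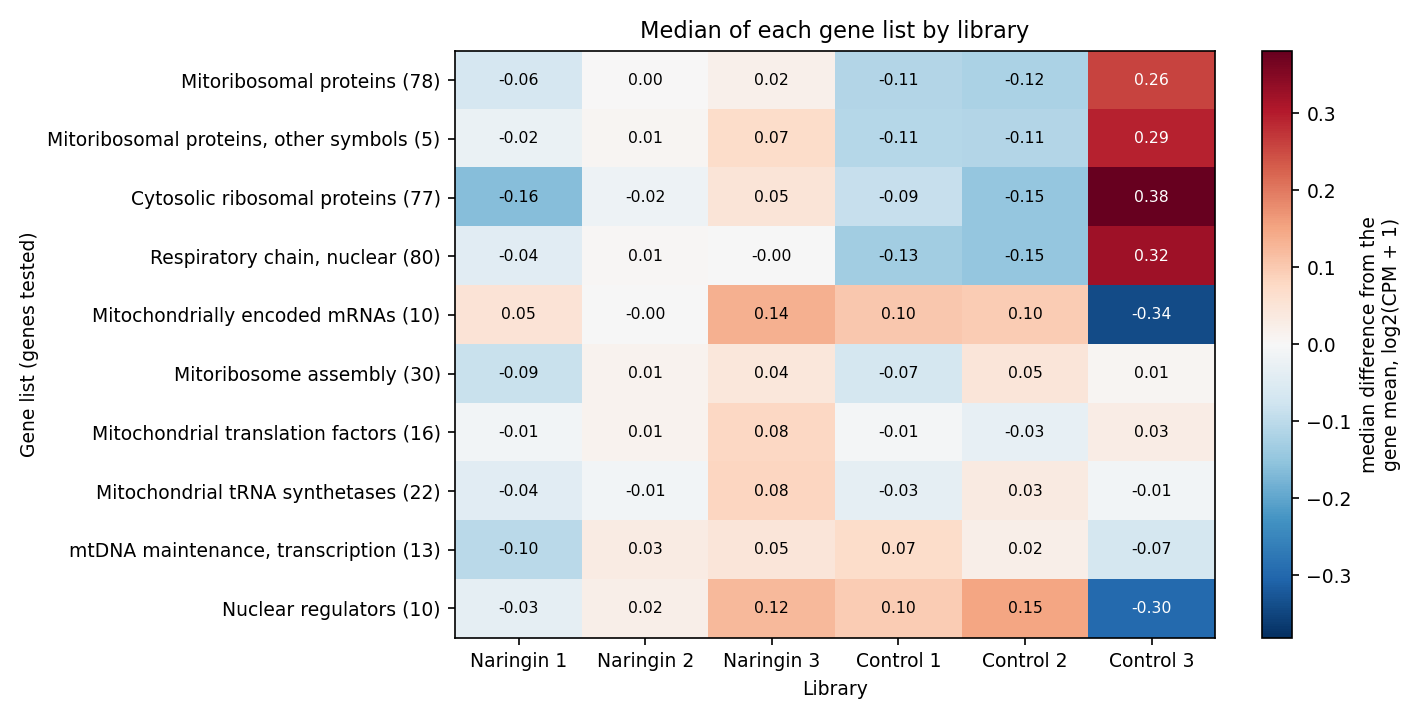
Median difference from the gene mean, in log2(CPM + 1), for 10 lists (rows, with the number of genes tested) in the 3 Naringin and 3 Control libraries (columns). In the Control 3 column the 4 lists at the top run from 0.26 to 0.38, and the mitochondrially encoded mRNAs and the nuclear regulators stand at -0.34 and -0.30.

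Nuclear regulators of mitochondrial biogenesis also had lower levels in Control 3 than in Control 1 and 2. The median difference was -0.46 (log2) over the list of 10. Over all tested genes in the longest bin of exon length it was -0.42. The part of transcript length in the level of these regulators was not tested. Gabpa, which encodes the DNA-binding subunit of the ETS-family factor GABP, had 67.3, 68.7 and 67.6 CPM in Naringin, against 65.3, 72.9 and 39.5 CPM in Control. Nrf1, which encodes the other classical activator of these genes, had 55.7, 59.2 and 62.1 CPM in Naringin, against 58.4, 60.5 and 55.8 CPM in Control. Myc had 45.9, 51.2 and 62.8 CPM in Naringin, against 69.7, 60.4 and 50.3 CPM in Control. Over the list of 10, 6 were above 0 with Control 3 and 1 without, with medians of 0.04 and -0.14, and 0 were called.

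Cell composition was read from marker lists, in which 0 genes were called. The 10 proliferation markers, all detected, summed to 523 to 587 CPM in Naringin and 510 to 548 CPM in Control. In Control 3, 7 of the 10 were at their highest. The difference of Control 3 from Control 1 and 2 had a median of 0.24 (log2), against 0.35 over the ribosomal members. The same median was 0.93 for macrophage, 0.47 for erythroid and 0.26 for stroma and endothelium markers. It was 0.04 for T cell, -0.05 for B cell and -0.73 for adipocyte markers. The 8 macrophage markers, all detected, summed to 2574, 1718 and 950.3 CPM in Naringin, against 1205, 1310 and 2514 CPM in Control, so Naringin 1 and Control 3 were the highest libraries. The 5 erythroid markers, all detected, summed to 55.2, 58.8 and 56.0 CPM in Naringin, against 35.8, 32.1 and 49.6 CPM in Control. The erythroid sums did not overlap, all 5 genes were above 0 with a median of 0.49, and 3 had an unadjusted p under 0.05. Such a p by limma was found in 213 of all 14873 tested genes. The 8 B cell markers, all detected, summed to 3524 to 4320 CPM in Naringin and 3452 to 3809 CPM in Control. All 8 were above 0, with a median of 0.19. The 8 T cell markers, of which Trac had no read in any library, summed to 1016 to 1393 CPM in Naringin and 1280 to 1440 CPM in Control. Of the 7 tested, 1 was above 0 and 6 below, with a median of -0.25, and 1 had an unadjusted p under 0.05 by limma. The 8 adipocyte markers, all detected, summed to 64.0 to 91.8 CPM in Naringin and 78.7 to 147 CPM in Control, with the highest sum in Control 1. The 8 markers of stroma and endothelium, all detected, summed to 588 to 1369 CPM in Naringin and 716 to 821 CPM in Control, with the highest sum in Naringin 1. The 6 skin and muscle markers, of which Myh4 had no read, summed to between 2.88 CPM, in Naringin 1, and 4.41 CPM, in Control 3. Above 0 were 8 of 10 proliferation, 2 of 7 macrophage, 1 of 6 adipocyte and 7 of 8 stroma and endothelium markers tested. Their medians were 0.05, -0.10, -0.38 and 0.07. The part of cell composition in the level of the members was not tested.

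Promoters of the members were set beside these values because most of the genes were high together in Control 3. The RefSeq table of build GRCm38.p6 gave 69 of the 78 genes, with 250 bases before and 50 after each start. This build differs from the mm39 build of the counts, and genes were matched by symbol. Some genes had several starts, and a gene was counted when any of them had a match. The letters CCGGAAG, the core bound by ETS factors such as GABP, were found on either strand in 26 of the 69 (37.7%). They were found in 18.8% of the 11298 tested genes with a promoter there and in 9.93% of all 27025 symbols. The letters GCGCATGCG, the core bound by NRF1, were found in 7 (10.1%), against 3.73% and 1.95%. Another motif, ACANNTCCC, the middle of the longer site bound by ZNF143, was searched after it had been seen in both Mrps22 and Mrpl50. It was found in 5 (7.25%), namely Mrpl24, Mrpl34, Mrpl42, Mrpl50 and Mrps22, against 9.61% and 7.21%, so the share was near that of all symbols. A match describes the letters and is no evidence of binding. The 120 bases before the start are shown for the pair of separated members, Mrps22 and Mrpl50, and for Mrpl22 and Mrpl32. Mrpl22 and Mrpl32 carry NRF1 cores and stood higher in Naringin after scaling to the member sum, and were picked after their values were seen. Mrpl9, Mrpl10, Mrpl17, Mrpl39 and Mrps18b carry the core and did not separate on that scale. Mrpl21 and Mrps25 stood higher on it and carry no NRF1 core. Capitals mark matches to any of the 3 motifs. The windows are chr9:98601680-98601799 on the minus strand, chr4:49521084-49521203 on the minus strand, chr11:58171544-58171663 on the plus strand and chr13:14613038-14613157 on the minus strand.
Mrps22: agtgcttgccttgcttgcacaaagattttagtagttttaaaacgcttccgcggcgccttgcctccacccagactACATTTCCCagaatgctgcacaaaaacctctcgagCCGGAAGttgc
Mrpl50: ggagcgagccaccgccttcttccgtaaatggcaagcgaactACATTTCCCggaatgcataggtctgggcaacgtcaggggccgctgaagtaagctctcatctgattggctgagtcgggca
Mrpl22: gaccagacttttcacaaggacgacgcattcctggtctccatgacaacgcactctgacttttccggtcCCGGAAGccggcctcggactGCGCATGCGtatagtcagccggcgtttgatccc
Mrpl32: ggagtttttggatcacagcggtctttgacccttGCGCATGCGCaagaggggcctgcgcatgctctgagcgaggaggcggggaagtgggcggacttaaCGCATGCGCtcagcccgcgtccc

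In Mrps22 the ETS core began 11 bases before the start and the ZNF143 letters 46 bases before it. In Mrpl50 the ZNF143 letters began 79 bases before the start and again 140 bases before, outside the bases shown. In Mrpl22 the ETS and NRF1 cores began 53 and 33 bases before, and in Mrpl32 NRF1 cores began 87, 86 and 23 bases before, the first of them overlapping on opposite strands. Members with and without an ETS core had similar medians in Control 3, 0.36 with it and 0.35 without, and Naringin against Control the medians were -0.05 and -0.0047. With and without an NRF1 core the medians were 0.25 and 0.39 in Control 3, and 0.03 and -0.02 Naringin against Control. For the ZNF143 letters they were 0.34 and 0.36, and -0.03 and -0.01.

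Some of these genes lie back to back with another gene. Of the 69, 26 had a start on the opposite strand within 1000 bases upstream, and 25 of these neighbours were tested. The same share among all genes with a promoter in that table was not counted. None of the 25 was called (limma; the pairs include Mrpl46 with Mrps11, whose starts lie 42 bases apart and which are both members). Naringin against Control, 8 of the 25 neighbours were above 0, with a median of -0.02. In Control 3 the neighbours had a median of 0.01, against 0.32 for the members they face. Mrps12 and Sars2, the mitochondrial seryl-tRNA synthetase, have starts 147 bases apart, and stood 0.51 and 0.23 above Control 1 and 2 in Control 3. Mrpl50 faces the zinc finger gene Zfp189 at 93 bases, and the pair stood at -0.06 and -0.75. Mrpl49 faces Fau, a fusion of a ubiquitin-like protein and the cytosolic ribosomal protein S30, at 192 bases, with 0.28 and 0.54. Among the other neighbours of the members named by p, Mrpl32 faces the proteasome subunit gene Psma2, Mrpl21 the helicase gene Ighmbp2 and Mrpl27 the nuclease gene Eme1, with Naringin differences of -0.02, -0.04 and -0.02 in these neighbours. The labels do not say whether reads were assigned by strand, so reads of overlapping opposite genes cannot be told apart.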

How the data were processed

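RNA of 6 lymph node samples was sequenced from libraries made of 1 µg of total RNA, per the labels' protocols. Per the submitters' processing notes, the tools were Trimmomatic 0.39, STAR 2.7.9a, featureCounts of Subread 1.6.0 and edgeR 3.40.0, with genome build mm39. The authors deposited CPM per gene; each column summed to 1000000 with no further scaling. CPM values are shares of a library, so genes that change strongly shift the rest. In every library 100% of the values above 0 came out as whole reads (within 0.01), which gave totals of 13074180 to 14976422. Counting error was taken from these reads. The 14873 genes averaging 1 CPM or more, of 28727 with a read, were tested with limma 3.58.1 (trend and robust, R 4.3.3) on log2(CPM + 1), so fold changes of low genes are understated, with Benjamini-Hochberg adjustment over all of them. Alternatives were pseudocounts of 0.5 and 0.1, no filter, a filter of 5 CPM, TMM, upper-quartile, median-of-ratios and quantile scaling, leaving out each library, a replicate block, plain limma, and edgeR 4.0.16 and DESeq2 1.42.0 on the recovered reads. A correction for exon length and a scaling to the member sum were added after the data were seen. The fits were tested on simulated data. Exon lengths came from GENCODE M21, matched by symbol for 78 members and 95.1% of tested genes. The members and lists were chosen with earlier results of these data known. Named genes were the 8 members with the smallest p in each direction, the 5 highest and 5 lowest per kb, 10 chosen for their role, the 5 with the largest residual SD, the 2 with the smallest p of each related list, and neighbours of the first set. The neighbours and promoters came from the RefSeq table. Some results under these rules are not reported here.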

Additional observations from a re-analysis of the deposited data

How the results depend on the processing

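No member was called in any of the 20 alternatives. The medians of the members and of each subunit moved by less than the spread between libraries in all of them. For the members that spread was 0.156 (log2). Control 3 is itself part of it, with a median deviation of 0.26 against -0.11 and -0.12 in Control 1 and 2. The spread is therefore no independent measure for the fit without Control 3. Without Control 3 the members' median went from -0.02 to 0.12, and their residual SD was 0.087 in that fit. Of all tested genes, 0 were called except without Control 3 (1 gene) and by DESeq2 (3 genes: Cd209g, Cd209f and Fgf23). Members above 0 numbered 32, and 20 with upper-quartile scaling, 16 with quantile normalization and 20 to 68 with 1 library left out. Members whose groups did not overlap numbered 2, against 3.36% upward and 2.29% downward of all tested genes. After scaling to the member sum they numbered 8, against 2.07% and 1.72%, which is not a like comparison. Without Control 3 they numbered 31, against 11.2% and 16.6%, as groups of 2 libraries separate more easily. With 1 of the other libraries left out they numbered 2 to 7, and the share of all tested genes was not counted. The members' median ran from -0.10 without Control 2 to 0.12 without Control 3, and was 0.02 without Naringin 1. With 1 library left out, Mrps36 ran from -0.0074 to 0.25, Mrps21 from -0.28 to 0.061 and Mrpl38 from -0.28 to 0.094, turning without Control 1, Control 3 and Control 3. The cause was not tested. After correction for exon length the median was -0.02 with 30 members above 0. With a replicate block the median was -0.02 and 0 genes were called, 157 of them at an unadjusted p under 0.05. Libraries with the same number did not deviate together (correlations of -0.26, -0.02 and -0.27), so the block pairs nothing. Depth gave at least 122 reads per member and library, with a median counting error of 0.067 (log2) against a residual SD of 0.175.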
